A study of Homo sapiens with 20 samples.

Results

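The keratins examined here are the 3 that mark basal epidermal keratinocytes, KRT5, KRT14 and KRT15, and the 3 that mark the suprabasal layers, KRT1, KRT10 and KRT2. The 6 were chosen by name, from what is known of the epidermis, out of 57500 genes counted in each library. Earlier results of these data were known when they were chosen. They were measured by RNA-seq in NTERT cells, human keratinocytes immortalized with telomerase and grown as a monolayer, in 20 samples. WT cells carried a control guide RNA, and GCN2KO cells were an early-passage pool, not a clone, edited by CRISPR-Cas9 with guides to EIF2AK4, the gene for the eIF2α kinase GCN2. Each genotype was left unwounded or given high-density wounding (HDW), in which pipette tips were drawn across the sheet in crossing directions, and RNA was taken 6 h later. Raised calcium and serum were used to form epithelial sheets in every group before wounding, and each of the 4 groups held 5 samples, named here by the replicate numbers of the labels. The study's methods describe replicate platings, but neither they nor the labels say whether these were made on separate days, so p-values measure the spread between these samples.

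Keratin filaments are built from pairs, each an acidic type I chain with a basic type II chain. In basal keratinocytes the type II keratin KRT5 pairs with the type I keratin KRT14, and KRT15 is a further basal type I keratin, also known from the hair follicle bulge. Cells that leave the basal layer switch to KRT1, a type II keratin, and KRT10, its type I partner, and KRT2 is a type II keratin of the upper layers. Cells around a wound switch on KRT6A, KRT6B, KRT16 and KRT17.

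All 6 genes are read from the minus strand (GRCh38). The type II genes lie in the cluster on chromosome 12, with KRT5 (ENSG00000186081) at chr12:52514575-52520530, KRT2 (ENSG00000172867) at chr12:52644558-52652211 and KRT1 (ENSG00000167768) at chr12:52674736-52680407. The type I genes lie on chromosome 17, with KRT10 (ENSG00000186395) at chr17:40818117-40822614, KRT15 (ENSG00000171346) at chr17:41513745-41522529 and KRT14 (ENSG00000186847) at chr17:41582279-41586895. Stretches of 100 exonic bases identical to another keratin gene or pseudogene made up 4.13% of such windows in KRT14, shared with KRT16 and the pseudogenes KRT16P4 and KRT16P5, and 0.764% in KRT5, shared with KRT6A, KRT6B and KRT6C. KRT10 has 61 exonic bases, 2.82% of its exonic length, in common with the antisense gene KRT10-AS1, and KRT15 has 2 bases in common with MIR6510. Whether the counting used strand is not given in the sources used here.

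The RefSeq promoter table held entries for 3 members only, KRT5, KRT10 and KRT2, and their 250 bases before the RefSeq start were searched (GRCh38.p14, minus strand, read 5′ to 3′). These genes were respectively among the most abundant, low and nearly undetected in these cells. RefSeq starts KRT5 at 52520394, inside the longer GENCODE gene given above, so that 136 of its 250 bases lie within that gene, and only the outer 114 are printed. Capitals mark matches on either strand to TATAA (the TATA box), GCCNNNGGC (AP-2), TTGCNNAA (C/EBP), CACCC (known from factors of the KLF family), CCAAT (known from NF-Y), TGANTCA (AP-1) and an NF-kB motif. The printed stretches are chr12:52520531-52520644, chr17:40822615-40822864 and chr12:52652212-52652461.
KRT5: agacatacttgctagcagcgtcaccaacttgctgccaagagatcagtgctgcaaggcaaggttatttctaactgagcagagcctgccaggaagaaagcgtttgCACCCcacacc
KRT10: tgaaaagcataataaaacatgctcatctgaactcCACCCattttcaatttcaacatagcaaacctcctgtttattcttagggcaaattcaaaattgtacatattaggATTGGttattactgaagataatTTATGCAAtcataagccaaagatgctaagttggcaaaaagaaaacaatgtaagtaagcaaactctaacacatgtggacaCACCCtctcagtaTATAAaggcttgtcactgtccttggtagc
KRT2: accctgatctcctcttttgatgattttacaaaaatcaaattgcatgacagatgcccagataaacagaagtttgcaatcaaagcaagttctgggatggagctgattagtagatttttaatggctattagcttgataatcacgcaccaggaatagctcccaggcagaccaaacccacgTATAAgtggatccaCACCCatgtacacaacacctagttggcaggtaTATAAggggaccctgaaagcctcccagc
The KRT5 window held 1 CACCC match, at 147 to 143 bases before the RefSeq start, from which all positions here are counted. The KRT10 window held TATAA at 29 to 25 bases, CACCC at 42 to 38 and 216 to 212 bases, and, on the other strand, a C/EBP letter match at 121 to 114 and CCAAT at 143 to 139. The KRT2 window held TATAA at 74 to 70 and 28 to 24 bases and CACCC at 60 to 56. No AP-1, AP-2 or NF-kB letters were in these 3 windows. Over 35116 promoter windows of the same length, 54.7% held CACCC, 18.9% TATAA, 32.0% CCAAT, 9.05% the C/EBP letters, 6.57% AP-1, 19.8% AP-2 and 1.73% NF-kB, so the commonest motif in these windows is also the commonest overall.

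Depth ran from 14083504 to 34611570 counts a library, with medians of 23685751 for unwounded and 34209033 for wounded WT cells and of 33981257 and 33995865 for GCN2KO cells. EIF2AK4 was lower in all GCN2KO libraries, at 806 to 961.6 normalized read counts (counts scaled to the mean effective library size) against 3980 to 4555 in WT, that is −2.28 on the log2 scale (SE 0.0649 and adjusted p = 4.29e-13 by edgeR) unwounded and −2.27 (SE 0.052 and adjusted p = 3.26e-12 by edgeR) after HDW. All 10 keratinocyte identity genes were detected in every group, with a summed level of 256800 to 394500 normalized read counts. LAMB3 alone stood at 60910 to 217800. In unwounded GCN2KO cells 3 of the 10 were higher and 5 lower (adjusted p of at most 0.05 by edgeR), beside 33.4% and 33.1% of all tested genes. In the same scale the sums were 667.5 to 1043 for 7 fibroblast genes, 130.4 to 643.7 for 6 melanocyte genes and 45.3 to 122.7 for 7 immune and endothelial genes. TYR, the defining melanocyte enzyme, was at 0 in every library, and the melanocyte sum moved with genotype, from 130.4 to 209.4 in WT to 351.3 to 643.7 in GCN2KO, mostly through MITF (1.98 on the log2 scale with SE 0.17 and adjusted p = 3.94e-08 by edgeR, unwounded). Its part in the keratin results was not tested.

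The cells held abundant basal keratin mRNA and little suprabasal keratin mRNA. The 6 members together took 1.93 to 2% of all counts in unwounded and 1.57 to 1.69% in wounded WT cells, and 1.4 to 1.58% in unwounded and 1.66 to 1.76% in wounded GCN2KO cells. In unwounded WT, KRT15 ranked 2 and KRT5 ranked 3 of all genes by count in every library. Per kilobase of exonic sequence, the mean levels there were 56560 ± 1300 (SD, n = 5) for KRT5, 43110 for KRT15, 28080 for KRT14, 583.1 for KRT10 and 9.01 for KRT1. The order of KRT5 and KRT15 depends on the length used, since with the canonical transcript KRT15 stood at 150300 per kilobase and KRT5 at 104500. KRT1, KRT10 and KRT2 are called suprabasal for where they are made in skin, since these monolayers held little of their mRNA.

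KRT5 stood at a separate level in each of the 4 groups. Its normalized read counts in replicates 1 to 5 were 225800, 237300, 237200, 238000 and 230600 in WT unwounded and 272200, 264700, 279600, 264000 and 283500 in WT HDW. The GCN2KO libraries held 316300, 342900, 332000, 357100 and 297700 unwounded and 391400, 401800, 396600, 398400 and 360700 after HDW. No 2 of the 4 groups overlapped, and the lowest GCN2KO library stood above the highest WT library. How many of all tested genes separate in this way is not given, here or for the genes below. Change with genotype was common, at an adjusted p of at most 0.05 by edgeR. Unwounded, 33.4% of tested genes were higher and 33.1% lower in GCN2KO, and after HDW 35.9% and 35.8%. The group means were 233800 ± 5390, 272800 ± 8710, 329200 ± 23100 and 389800 ± 16700 (SD, n = 5 each). By count KRT5 was the most abundant of all genes in each of the 5 GCN2KO HDW libraries.

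KRT14, the usual partner of KRT5, went the other way with genotype. Its normalized read counts were 66230, 64160, 62610, 61900 and 61670 in WT unwounded and 73900, 70780, 75890, 71410 and 74010 in WT HDW. In GCN2KO they were 41610, 32690, 32910, 35210 and 33250 unwounded and 37770, 46010, 41460, 37600 and 51110 after HDW. All 10 GCN2KO libraries stood below all 10 WT libraries, while the GCN2KO groups overlapped through replicate 1 of the unwounded cells. The means were 63320 ± 1900, 73200 ± 2090, 35130 ± 3750 and 42790 ± 5780 (SD, n = 5 each).

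KRT15 showed the widest range of the basal members. It stood at 253400, 256500, 272000, 245400 and 259200 normalized read counts in WT unwounded and at 136100, 116200, 129700, 130800 and 140100 in WT HDW. The GCN2KO libraries held 98040, 64190, 61410, 57250 and 67730 unwounded and 43480, 55980, 56610, 58550 and 84450 after HDW. The WT groups did not overlap with each other or with GCN2KO, whereas the GCN2KO groups overlapped. The means were 257300 ± 9710, 130600 ± 9050, 69730 ± 16300 and 59820 ± 15000 (SD, n = 5 each), and the 2 highest GCN2KO libraries were unwounded replicate 1 and HDW replicate 5.

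**Figure D1:**
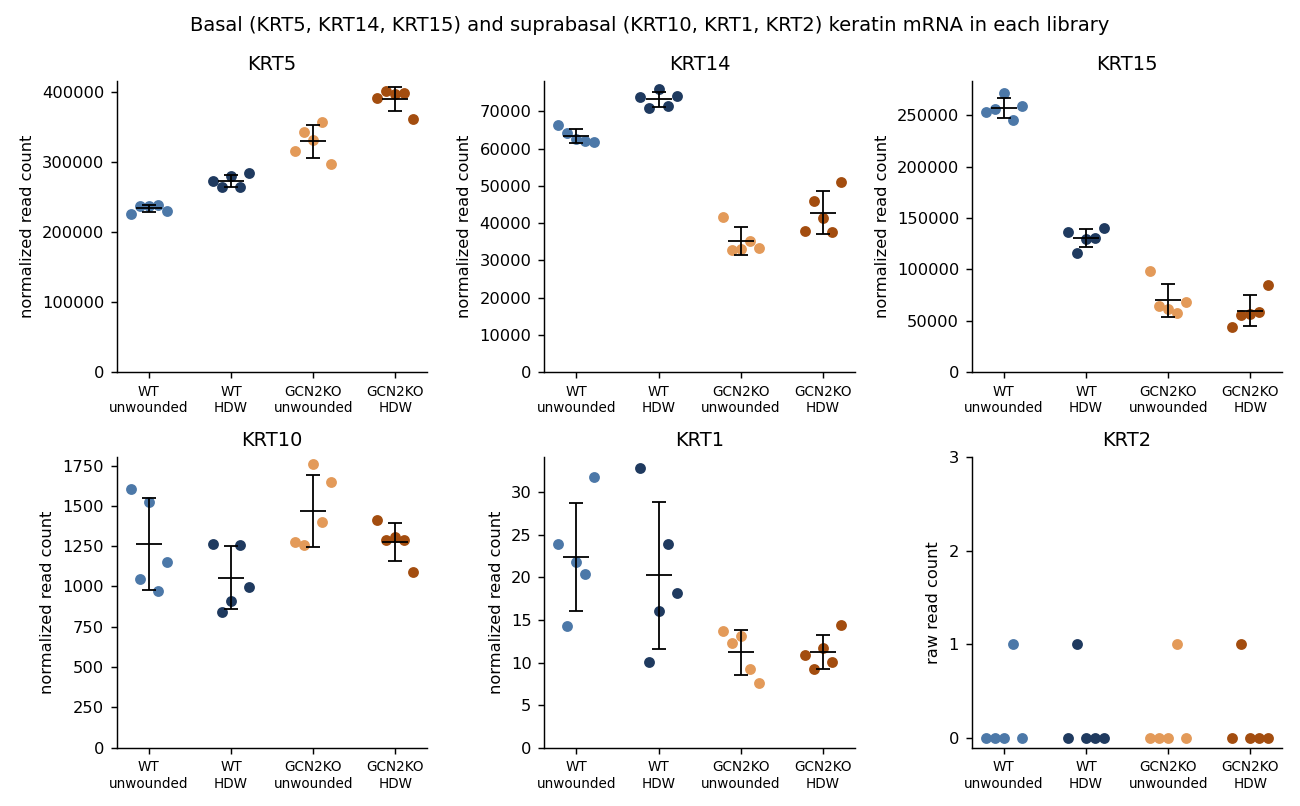
Normalized read counts (KRT2: raw read counts) of the 6 keratins in each library, with 5 points a group in replicate order and the mean ± SD in black. KRT5 climbs from a mean of 233800 to 389800, KRT14 and KRT15 are lower in every GCN2KO library than in every WT library, and KRT2 has no more than 1 read in a library.

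KRT10 was detected at a low level in all libraries. It stood at 1606, 1049, 1525, 974.6 and 1152 normalized read counts in WT unwounded and at 1265, 844.6, 909.7, 1256 and 996.3 in WT HDW. The GCN2KO values were 1277, 1260, 1759, 1399 and 1646 unwounded and 1410, 1289, 1304, 1291 and 1088 after HDW. The 4 groups overlapped, with means of 1261 ± 286, 1054 ± 196, 1468 ± 224 and 1276 ± 117 (SD, n = 5 each).

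KRT1, the type II partner of KRT10, was close to the limit of detection. Its raw counts were 12, 8, 18, 22 and 33 in unwounded and 39, 12, 19, 24 and 21 in wounded WT libraries, and 12, 8, 15, 11 and 9 in unwounded and 13, 11, 14, 6 and 15 in wounded GCN2KO libraries. After scaling, the means were 22.4 ± 6.34, 20.2 ± 8.64, 11.2 ± 2.63 and 11.2 ± 1.99 normalized read counts (SD, n = 5 each). KRT2 had 1 read in 1 library of each group and 0 reads in the other 16, where a count of 0 allows 3 reads, or 0.0867 to 0.213 CPM over the 20 libraries, for counting error only. KRT2 did not pass the filter on low counts in any comparison, and its groups could not be told apart at this depth. The other 5 members passed it in each comparison.

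The first comparison asked how these keratins differed between GCN2KO and WT cells before any wound. Genotype and edited cell pool coincide in these samples, so loss of GCN2 and other differences between the pools cannot be told apart. In unwounded cells, KRT5 rose 1.41-fold in GCN2KO, KRT14 fell 1.80-fold, KRT15 fell 3.68-fold and KRT1 fell 2.08-fold, while KRT10 did not pass the test. The log2 fold changes were 0.50 (SE 0.0788, adjusted p = 3.7e-05, edgeR quasi-likelihood test with Benjamini-Hochberg adjustment here and below) for KRT5 and −0.85 (SE 0.0796 and adjusted p = 1.18e-07 by edgeR) for KRT14. KRT15 had −1.88 (SE 0.126 and adjusted p = 2.45e-09 by edgeR) and KRT1 −1.06 (SE 0.257 and adjusted p = 0.00179 by edgeR). In these 4 genes every GCN2KO library lay on the same side of every WT library. The share of all tested genes that separated in this way is not given here. KRT10 gave 0.23 (SE 0.134 and adjusted p = 0.144 by edgeR), and it passed without WT unwounded replicate 1 (0.32, edgeR adjusted p = 0.0419). Change was the rule in this comparison, in which 33.4% of 15348 tested genes were higher and 33.1% lower at an adjusted p of at most 0.05. KRT15 and KRT1 also met the log2 fold change of at least 1 that defined a DE gene, against 16.4% of tested genes. KRT1 fell short of that threshold without WT unwounded replicate 5 (−0.87) or GCN2KO unwounded replicate 4 (−0.99) or 5 (−0.93), though its adjusted p passed each time. In bulk RNA a smaller number of cells that make a transcript and less transcript per cell cannot be told apart.

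The same comparison after HDW asked whether the genotypes still differed 6 h after wounding. KRT5 stood 1.43-fold higher in GCN2KO (0.52 on the log2 scale with SE 0.0466 and adjusted p = 2.47e-07 by edgeR), and KRT14 stood 1.71-fold lower (−0.77, SE 0.0751 and adjusted p = 4.86e-07 by edgeR). KRT15 was 2.18-fold lower (−1.13, SE 0.13 and adjusted p = 2.79e-06 by edgeR) and was the only member that met the DE threshold, which 14.9% of 15855 tested genes did. Leaving out GCN2KO unwounded replicate 1 and GCN2KO HDW replicate 5 together gave −1.28 for KRT15 here and −2.04 in unwounded cells. This choice was made after the data were seen. The libraries left out had the highest KRT15 of their groups, so lower values follow by construction. KRT1 had a log2 fold change of −0.83 with overlapping groups (SE 0.295 and adjusted p = 0.0214 by edgeR), and its call was lost without WT HDW replicate 1 (−0.58, edgeR adjusted p = 0.0673) or GCN2KO HDW replicate 2 (−0.75, edgeR adjusted p = 0.0546). KRT10 rose by 0.28 (SE 0.108 and adjusted p = 0.0321 by edgeR), also with overlap, and that call was lost when WT HDW replicate 2, 3 or 5 or GCN2KO HDW replicate 1, 2, 3 or 4 was left out, with adjusted p from 0.0538 to 0.0883 and log2 fold changes of 0.20 to 0.28. Of all tested genes, 35.9% were higher and 35.8% lower.

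Wounding of WT cells separated KRT15 from the other basal members. KRT5 rose 1.17-fold (0.22 on the log2 scale with SE 0.0349 and adjusted p = 8.3e-05 by edgeR) and KRT14 1.15-fold (0.21, SE 0.0354 and adjusted p = 0.000169 by edgeR), whereas KRT15 fell 1.97-fold (−0.98, SE 0.0479 and adjusted p = 5.29e-10 by edgeR). In all 3 genes the wounded and unwounded libraries did not overlap, and the share of all tested genes without overlap is not given here. By p-value KRT15 ranked 75 of the 15348 genes tested, although it missed the DE threshold, which 4.17% met. It reached that threshold without WT HDW replicate 5 (−1.01) and with scaling by library size alone (−1.02). KRT10 (−0.25, SE 0.141 and adjusted p = 0.153 by edgeR) and KRT1 (−0.19, SE 0.288 and adjusted p = 0.602 by edgeR) did not pass. Over all tested genes 26.1% were higher and 25.2% lower.

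In GCN2KO cells wounding changed fewer genes, 11.9% of 15791 higher and 10.8% lower, with 0.671% past the DE threshold and no member among these. KRT5 rose 1.19-fold (0.25 on the log2 scale with SE 0.0741 and adjusted p = 0.0259 by edgeR) and KRT14 1.23-fold (0.30, SE 0.0985 and adjusted p = 0.0439 by edgeR), with overlap in KRT14. Both calls were close to the threshold. That for KRT5 was lost without GCN2KO unwounded replicate 1 or 5 or HDW replicate 1, 2, 3 or 4, with adjusted p of 0.0538 to 0.0687, and that for KRT14 without unwounded replicate 2, 3, 4 or 5 or HDW replicate 2, 3 or 5, with adjusted p of 0.0569 to 0.107. Their log2 fold changes over these fits were 0.22 to 0.25 for KRT5 and 0.22 to 0.31 for KRT14. KRT15 had −0.21 (SE 0.167 and adjusted p = 0.375 by edgeR), KRT10 −0.19 (SE 0.0976 and adjusted p = 0.16 by edgeR) and KRT1 0.05 (SE 0.243 and adjusted p = 0.897 by edgeR).

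In the test of the difference between the responses, 1 of the 5 tested members passed, KRT15. The KRT15 response to HDW was 0.76 higher on the log2 scale in GCN2KO than in WT (SE 0.188 and adjusted p = 0.00472 by edgeR). By p-value KRT15 ranked 1689 of 16536 tested genes, and it missed the DE threshold, which 3.31% met. Over all tested genes 11.2% had a positive and 12.5% a negative difference, so 1 pass among 5 members is not unusual. Without GCN2KO unwounded replicate 1 and GCN2KO HDW replicate 5 this difference was 0.75 (edgeR adjusted p = 2.85e-05). These libraries were picked for the highest KRT15 of their groups, which narrows the spread of KRT15 by construction. The lower adjusted p therefore adds no support, and only the size of the difference is described. The responses of KRT5 (difference 0.02, SE 0.0822 and adjusted p = 0.886 by edgeR), KRT14 (0.08, SE 0.109 and adjusted p = 0.66 by edgeR), KRT1 (0.23, SE 0.405 and adjusted p = 0.724 by edgeR) and KRT10 (0.05, SE 0.187 and adjusted p = 0.884 by edgeR) did not pass this test. The comparisons share samples, since each of the 4 groups enters several of them.

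**Figure D2:**
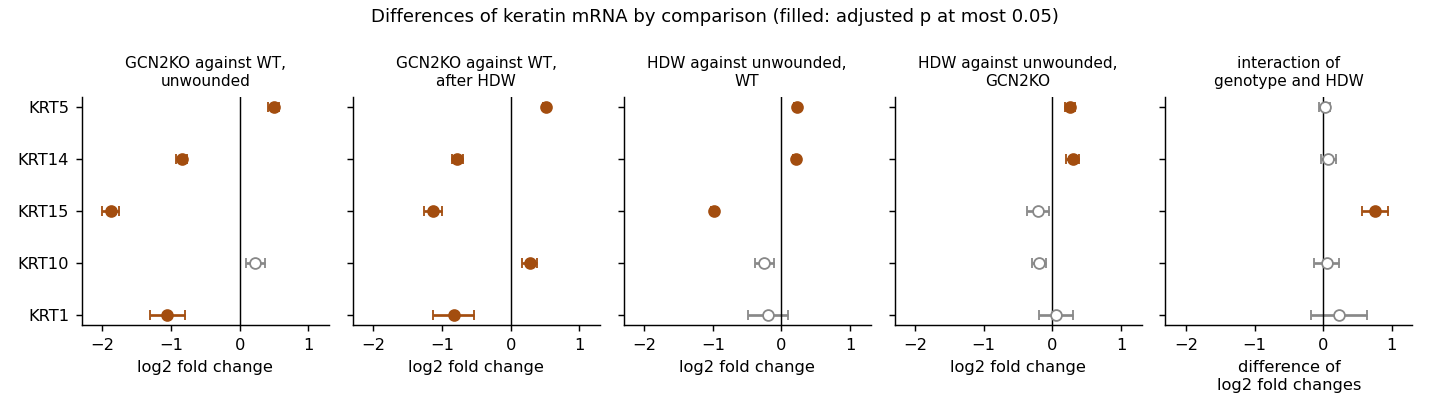
Log2 fold change (x axis) of the 5 tested keratins in each of the 4 comparisons, and the difference of the responses to HDW between genotypes in the last panel; bars are ± SE and filled points have an adjusted p of at most 0.05. KRT5 lies above 0 and KRT14 and KRT15 below 0 in both genotype comparisons, and in the last panel KRT15, at 0.76, is the only filled point.

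The opposite moves of KRT5 and KRT14 altered the ratio of these filament partners. Per kilobase of exonic sequence, the KRT14 to KRT5 ratio was 0.497 ± 0.024 and 0.492 ± 0.00813 in unwounded and wounded WT cells, and 0.197 ± 0.0274 and 0.202 ± 0.0353 in unwounded and wounded GCN2KO cells (SD, n = 5 each). The WT libraries ran from 0.477 to 0.538 and the GCN2KO libraries from 0.173 to 0.26, without overlap. With canonical transcript lengths the means were 0.371, 0.367, 0.147 and 0.151. The KRT15 to KRT14 ratio, between the basal type I chains, was 1.54 before and 0.674 after HDW in WT, and 0.744 before and 0.525 after HDW in GCN2KO. Its level depends on the length used, since canonical lengths gave 3.89, 1.70, 1.88 and 1.33, with KRT15 above KRT14 in all 4 groups. The KRT10 to KRT14 ratio, a suprabasal against a basal type I chain, was 0.0207 ± 0.00436 and 0.015 ± 0.00287 in WT and 0.0442 ± 0.00949 and 0.0318 ± 0.00646 in GCN2KO, unwounded and after HDW. In unwounded cells its ranges, 0.0164 to 0.0254 in WT and 0.032 to 0.0557 in GCN2KO, did not overlap. Nor did they after HDW, at 0.0124 to 0.0183 in WT and 0.0222 to 0.0389 in GCN2KO. Per kilobase, KRT10 exceeded its partner KRT1 by 67.8 ± 18.7 times in WT unwounded and 160.6 ± 56.3 times in GCN2KO unwounded, on counts of 33 or fewer for KRT1 in those libraries. These ratios were not tested, because their terms were tested singly.

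**Figure D3:**
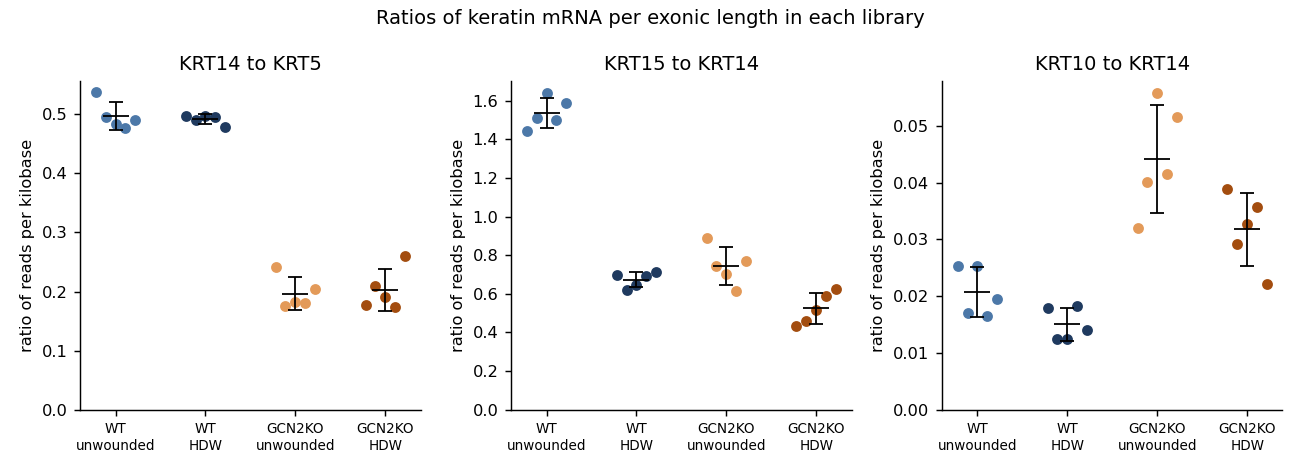
Ratios of reads per kilobase of exonic sequence between keratins in each library, with 5 points a group and the mean ± SD in black. The KRT14 to KRT5 ratio is near 0.49 in both WT groups and near 0.2 in both GCN2KO groups.

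Among all keratins, the shares of KRT14, KRT15 and KRT5 were smaller in GCN2KO than in unwounded WT cells, and those of KRT17, KRT6A and KRT81 were larger. In each library the levels per kilobase of 28 type I and 26 type II keratin genes were summed, and each gene was given as a share of its type. KRT15 made up 35.4 ± 1.1% of type I keratin mRNA in unwounded and 17.7 ± 0.895% in wounded WT cells, then 6.47 ± 1.29% in unwounded and 5.98 ± 1.44% in wounded GCN2KO cells. KRT14 made up 23.1 ± 0.47%, 26.3 ± 0.41%, 8.65 ± 0.662% and 11.3 ± 1.24% in the same order (SD, n = 5 each). KRT17 took 30.5 ± 1.36% and 42.6 ± 3.19% in WT and 69.4 ± 2.18% and 66.4 ± 3.44% in GCN2KO. KRT5 held 62.1 ± 0.395% of type II keratin mRNA in WT unwounded but 47.7 ± 1.01%, 44.7 ± 1.57% and 44.5 ± 0.741% in the other groups, although its own level was highest in GCN2KO HDW. KRT6A went from 25.6 ± 0.796% to 34.4 ± 0.453%, 32.5 ± 0.948% and 32.5 ± 1.13%. The hair keratin KRT81 went from 4.58 ± 0.356% to 6.66 ± 0.88%, 14.2 ± 2.02% and 14.1 ± 1.84%. Between unwounded WT and GCN2KO cells, canonical lengths took KRT81 from 2.78 to 9.34% and KRT6A from 19.7 to 27%. Which of these 2 keratins gained more points there depends on the length used. Canonical lengths gave KRT15 52.8, 30.2, 11.4 and 10.7% of type I, KRT17 25.8, 41.2, 69.6 and 67.4%, and KRT5 69.5, 57.1, 54.1 and 54.2% of type II. The summed type I level per kilobase was 121700 in WT unwounded and 180000 in GCN2KO unwounded, and the summed type II level 91150 and 178100.

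**Figure D4:**
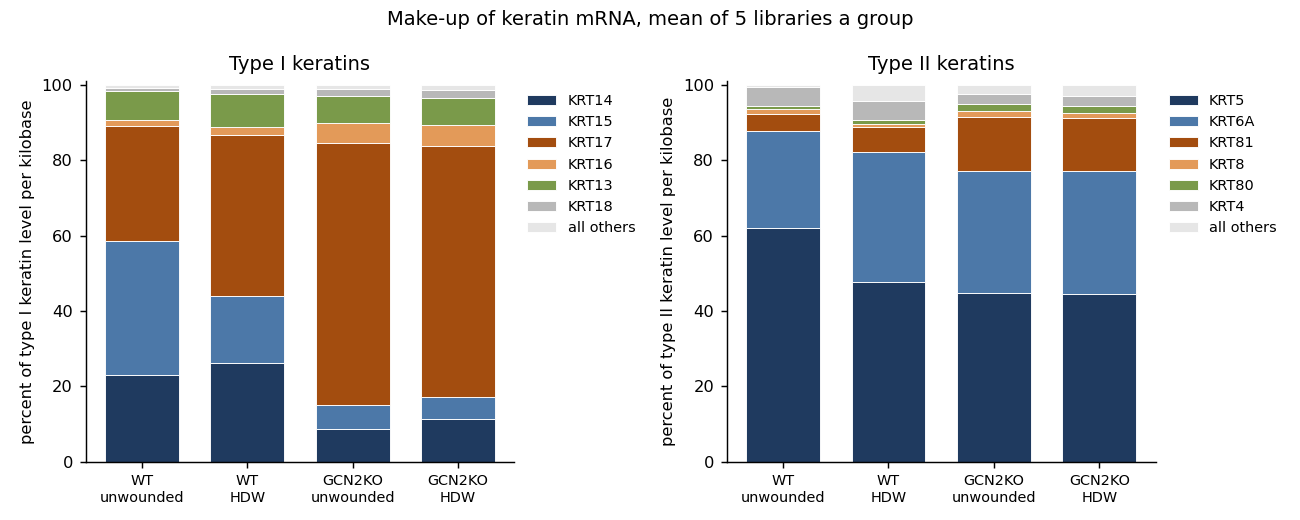
Share (percent of the summed level per kilobase of exonic sequence, mean of 5 libraries a group) of each named gene in type I (left) and type II (right) keratin mRNA. KRT14 and KRT15 shrink and KRT17 grows from 30.5% to 69.4% between unwounded WT and GCN2KO cells, KRT5 goes from 62.1% to 44.7%, and KRT81 from 4.58% to 14.2%.

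Keratins outside the 6 differed from the basal type I members in direction. Of 48 other keratin genes, 22 were tested in unwounded cells, of which 18 were higher in GCN2KO (edgeR, adjusted p of at most 0.05) and 4 did not pass, with a median log2 fold change of 1.64 against 0.00 over all tested genes. After HDW 17 of 26 were higher and 9 did not pass. Over all tested genes 33.4% were higher unwounded and 35.9% after HDW. A keratin with few reads could enter these counts only through the group in which it was higher. Among the wound keratins, which share long stretches with close copies, unwounded GCN2KO cells had log2 fold changes of 1.31 for KRT6A, 3.10 for KRT6B, 1.37 for KRT6C, 2.27 for KRT16 and 1.75 for KRT17. HDW in WT cells gave 1.03, 3.69, 1.21, 0.40 and 0.50 in the same order. In that comparison 16 of 23 other keratins rose and 7 did not pass, and in GCN2KO cells 8 of 24 rose after HDW, 1 fell (KRT7, −0.35) and 15 did not pass. Over all tested genes 26.1% rose after HDW in WT and 11.9% in GCN2KO. In the test of the difference between responses, 15 of 27 other keratins had a negative value and 12 did not pass. A negative value is a response lower in GCN2KO than in WT, whether a smaller rise or a fall. Over all tested genes 12.5% had a negative difference. The value of KRT15 was positive.

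Genes that hold basal cells to the basement membrane or mark the basal layer were mostly lower in GCN2KO, as KRT14 and KRT15 were. The basal keratin KRT5 was higher. Of 14 tested in unwounded cells, 12 were lower, 1 higher and 1 did not pass, with a median log2 fold change of −0.63. Over all tested genes 33.1% were lower and 33.4% higher. The notch ligand homolog DLK2 had −2.41 (SE 0.103), the hemidesmosome collagen COL17A1 −1.36 (SE 0.0853), P-cadherin (CDH3) −1.12 (SE 0.0794) and the laminin-332 chain LAMB3 1.09 (SE 0.121). After HDW 11 were lower and 2 higher, beside 35.8% and 35.9% of all tested genes. The median was −0.86, with DLK2 (−2.27), COL17A1 (−1.25) and CDH3 (−1.17) among the lower genes. In WT cells 7 of the 14 rose after HDW and 2 fell, beside 26.1% and 25.2% of all tested genes. Those that rose included LAMB3 (1.31), the laminin chain LAMA3 (0.96) and the keratin linker PLEC (0.53). LAMB3 and LAMA3 responded less in GCN2KO, with differences of −0.93 and −0.50. In GCN2KO 6 of 14 rose after HDW and 1 fell, beside 11.9% and 10.8% of all tested genes.

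**Figure D5:**
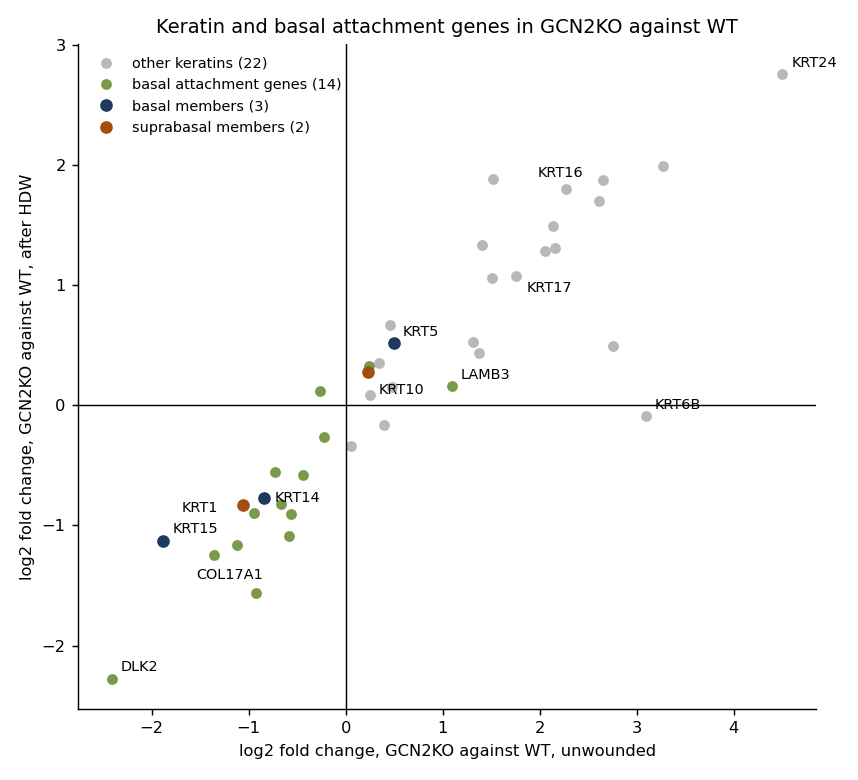
Log2 fold change of GCN2KO against WT in unwounded cells (x axis) and after HDW (y axis) for keratins and basal attachment genes tested in both comparisons, which share no samples. KRT14, KRT15 and KRT1 lie in the lower left with most attachment genes, KRT5 and KRT10 lie in the upper right, and no other keratin lies in the lower left.

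Genes of the suprabasal program other than keratins moved in both directions. Of 11 tested spinous layer genes, 6 were higher and 4 lower in unwounded GCN2KO cells, and their median was 0.16 on the log2 scale, where 33.4% of all tested genes were higher and 33.1% lower. Involucrin (IVL), a cornified envelope precursor, had 1.83 (SE 0.131), the desmosomal cadherin DSC1 1.10 (SE 0.23), KRTDAP 0.87 (SE 0.161) and the calmodulin-like CALML5 −1.13 (SE 0.195). Of 8 tested granular layer genes, 4 were higher and 2 lower, with the protease KLK5 at 3.90, the cornified envelope protein CNFN at 2.56, the protease ASPRV1 at 1.96 and the caspase CASP14 at −1.66. In WT unwounded libraries KLK5 had 3 to 5 raw reads and ASPRV1 1 to 12. These genes could enter the counts of higher genes only through GCN2KO, where they had more reads. After HDW the spinous genes stood at 5 higher and 4 lower and the granular genes at 4 higher and 2 lower, beside 35.9% and 35.8% of all tested genes. Wounding of WT cells lowered 3 of 6 tested granular genes, FLG (−1.01), CASP14 (−0.75) and TGM1 (−0.34), and the other 3 did not pass. It raised 2 of 11 spinous genes and lowered 2, where 26.1% of all tested genes rose and 25.2% fell. In GCN2KO cells HDW raised 2 spinous genes and lowered 1, and among 8 granular genes it lowered TGM1 (−0.40) and 7 did not pass, beside 11.9% raised and 10.8% lowered over all tested genes. In the test of the difference between responses, FLG (0.93) and CASP14 (0.78) passed among the granular genes and DMKN (−0.29) among the spinous genes.

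Transcription factors known to act on keratin genes also moved in both directions. Of 20, 7 were higher and 9 lower in unwounded GCN2KO cells, beside 33.4% and 33.1% of all tested genes. Their median was 0.02. PRDM1, which acts in differentiating keratinocytes, had 1.07 (SE 0.0945), GRHL1 had 0.92 (SE 0.0936) and MYC −1.06 (SE 0.0756). After HDW 10 were higher and 7 lower, beside 35.9% and 35.8%, with GRHL1 at 1.24, MYC at −0.95 and PRDM1 at 0.89. HDW in WT cells raised 7 and lowered 9, beside 26.1% and 25.2%, with KLF4 at 0.70, PRDM1 at 0.67 and CEBPA at −0.45. In GCN2KO cells it raised 8 and lowered 2, beside 11.9% and 10.8%, with GRHL3 at 0.50, PRDM1 at 0.50, GRHL1 at 0.49 and MYC at 0.37. The difference between responses was positive for 8 and negative for 2, beside 11.2% and 12.5% of all tested genes, with KLF4 at −0.62 and NOTCH1 at 0.57. Of 12 genes for desmosomal and other proteins that bind keratin filaments, 2 were higher and 5 lower in unwounded GCN2KO cells. Beside these stand 33.4% and 33.1% of all tested genes. Among the changed genes were EPPK1 (1.47), FBF1 (−1.24), PPL (0.62) and EVPL (−0.56). After HDW 4 were higher and 4 lower, beside 35.9% and 35.8%. HDW raised 7 and lowered 1 in WT, beside 26.1% and 25.2% of all tested genes. In GCN2KO it raised 5 while 7 did not pass, beside 11.9% raised and 10.8% lowered.

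The genes whose pattern was most like each member were ranked by Pearson r of log2 levels over the 20 samples among 16535 genes, a description in which the points share 4 groups. KRT5 was followed most closely by CRYBG2 (r = 0.99), VTI1A (r = 0.984) and DUSP16 (r = 0.982), and 713 genes had r above 0.9. For KRT14 these were MYC (r = 0.991), TMEM109 (r = 0.985) and SAMD1 (r = 0.984), with 1070 genes above 0.9. For KRT15 they were DCAF6 (r = 0.996), NFKBIA (r = 0.992) and PXYLP1 (r = 0.992), with 964 above 0.9. KRT1 was followed by CDH13 (r = 0.907), SLC29A3 (r = 0.876) and TOPORS (r = 0.872), and KRT10 by ZNF818P (r = 0.899), ANKRD37 (r = 0.862) and STEEP1 (r = 0.848), so the suprabasal members had 1 and 0 genes above 0.9.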

How the data were processed

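RNA-seq was made from 20 samples of NTERT cells (4 groups of 5). Per the labels and methods, the authors trimmed paired 150-base reads with Trimmomatic, mapped them to GRCh38 using STAR, and had featureCounts assign reads with a unique position to exons. They deposited 1 file of raw counts a sample, and they used DESeq2 for their own tests. The annotation release and the strand setting are not given in the sources used here. Of 57500 Ensembl IDs, 56410 matched a symbol and exonic length in GENCODE 44.

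Genes were filtered with filterByExpr (count of at least 10, total of at least 15), normalized by TMM and tested with the quasi-likelihood test of edgeR 4.0.16 in R 4.3.3, over the samples of each comparison and over all 20 for the interaction, with Benjamini-Hochberg adjustment over all genes tested. A gene changed at an adjusted p of at most 0.05, and a DE gene also had an absolute log2 fold change of at least 1. The fit was tested on simulated data. Normalized read counts are counts over the TMM effective library size relative to its mean, and levels between genes are per kilobase of exonic sequence. A pseudocount of 0.5 was used for correlations. Ratios and shares were described, not tested.

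Alternatives were DESeq2 1.42.0, its size factors, a replicate block, library size alone, a filter at a mean of 50 counts, no filter, 1 fit of all samples, the adjusted p alone, each sample left out, other transcript lengths and, added after seeing the data, leaving out the GCN2KO library with the highest KRT15 in each condition and using canonical transcript lengths. No libraries were identical within sampling noise. From each gene list up to 4 changed genes with the largest absolute log2 fold change were named, beside EIF2AK4, the wound keratins by value and the 3 genes most correlated with each member. Some genes that this rule would name are not reported here. The members and gene lists were chosen with earlier results of these data known. In a few places further genes were named after their values were seen, to complete a group. Depth ran from 14083504 to 34611570 counts a library, and the interval for 0 reads covers counting error only.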

Additional observations from a re-analysis of the deposited data

Results flagged for a closer look

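Over 20 sets of 5 libraries (5 keratins in 4 groups), 3 held a library whose gap to its nearest neighbour exceeded the critical share of 0.71 of the group range in Dixon's test, where chance gives about 1 in 20. KRT15 in GCN2KO unwounded replicate 1 stood at 98040 normalized read counts against 57250 to 67730 in the others (gap over range 0.743). KRT14 in the same library stood at 41610 against 32690 to 35210 (0.717). KRT5 in GCN2KO HDW replicate 5 stood at 360700 against 391400 to 401800 (0.747), and that library had the highest KRT14 (51110) and KRT15 (84450) of its group. EIF2AK4 in these libraries was 806 normalized read counts, the lowest of the 10 GCN2KO libraries, and 814. The part of either library in the keratin values was described by leaving both out. The response of KRT15 to HDW differed between genotypes by 0.76 on the log2 scale (edgeR adjusted p = 0.00472), with the means of WT going from 257300 to 130600 and those of GCN2KO from 69730 to 59820 normalized read counts.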

How the results depend on the processing

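The directions and the calls by adjusted p of KRT5, KRT14 and KRT15 in both genotype comparisons and in wounded WT cells held in every alternative run, as did that of KRT1 in unwounded cells and the KRT15 difference between responses (0.60 to 0.91, highest adjusted p 0.00984). The log2 fold change of KRT1 in unwounded cells ranged from −1.16 to −0.87 and that of KRT15 in wounded WT cells from −1.02 to −0.94, each on both sides of the DE threshold. Of the alternative log2 fold changes of members, 445 kept direction and call, 27 lost the call, 3 gained it and 9 changed sign. The sign changed only in values that passed no test, with leave-one-out ranges of −0.073 to 0.1315 for KRT1 after HDW in GCN2KO, and of −0.0482 to 0.1311 for KRT10 and −0.0073 to 0.061 for KRT5 in the difference between responses. Without a filter KRT10 passed in unwounded cells (0.23, adjusted p = 0.0214) and in wounded WT cells (−0.24, adjusted p = 0.0175), and in 1 fit of all samples it did not pass after HDW (0.28, adjusted p = 0.067).

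Another transcript length was tried for 16 group means of 4 ratios, and of the 32 values it gave, 23 moved by more than 1 SD and 9 by less. The number of members changed after HDW was 5 in GCN2KO against WT (3 to 5 with 1 sample left out), where 35.9% of all tested genes were higher and 35.8% lower. In wounded GCN2KO cells the number of members changed was 2, where 11.9% of all tested genes were higher and 10.8% lower. It was 1 with DESeq2 size factors or without a filter, 0 to 1 with 1 sample left out, and 0 with the replicate block, which gave KRT5 0.26 (adjusted p = 0.0621) and KRT14 0.29 (adjusted p = 0.104). Same-numbered samples showed little joint deviation (mean r of −0.09 to 0.04). In GCN2KO against WT after HDW, 3 of 5 pairs matched best with their own number, and 0 in each other comparison. The numbers thus show no clear pairing, and the block changed no other call of a member.

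The number of DE genes moved with the settings. Without a filter, higher genes went to 2132 (unwounded genotype comparison), 1950 (after HDW) and 114 (wounded GCN2KO), and lower genes to 397 (wounded WT) and 85 (wounded GCN2KO). With a mean of at least 50 counts, higher and lower genes went to 796 and 834, 563 and 765, 250 and 121 (wounded WT), 37 and 3 (wounded GCN2KO), and 73 and 207 (difference). With the adjusted p alone they were 5130 and 5083, 5690 and 5677, 4013 and 3865, 1880 and 1706, and 1851 and 2075. DESeq2 gave 1737 higher after HDW and 18 lower in wounded GCN2KO, where 1 fit of all samples gave 54 and leaving out 1 sample 20 to 59. The filter removes low genes by construction; the cause of the other moves was not tested. Depth limits KRT1 and KRT2, which had at most 39 and 1 reads a library.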
